A study of Mus musculus with 23 samples.

Results

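Lysosomal enzymes and membrane proteins were followed in RNA-seq of mouse cortex. The set holds 49 genes, found by symbol among the 39017 genes of the count table. They comprise 13 proteases, 12 glycosidases with lysozyme, 5 sulfatases, 8 lipid hydrolases and lipid-handling proteins, 9 membrane proteins, and progranulin with the transcription factor TFEB. All 49 passed the filter on low counts in each comparison. From general knowledge of mouse brain, 9 were classed as microglia-enriched (Ctss, Ctsc, Ctsh, Ctsz, Lgmn, Cd68, Laptm5, Lyz2 and Grn), and the other 40 as broadly expressed. The classes were drawn with earlier results of these data known, so the contrast between them is a description and not a test.

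The lysosome is the acidic compartment in which a cell digests proteins, sugars, lipids and nucleic acids taken up from outside or delivered by autophagy. Most of its hydrolases are made by every cell, and inherited loss of many of them causes storage diseases that damage neurons. TFEB is known to drive many of these genes through a short sequence in their promoters. Microglia, the resident macrophages of the brain, make some lysosomal proteins at far higher levels than neurons do, and add more when they engulf debris.

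The mice carried 1 copy of H3f3a, a gene for the histone variant H3.3, in which glycine 34 was replaced by arginine (G34R), valine (G34V) or tryptophan (G34W), or no such copy (WT). At 10 weeks there were 3 G34R, 3 G34V and 2 G34W animals and 6 WT animals, and at postnatal day 7 there were 4 G34R and 4 WT animals. The 10-week labels write the genotypes as Hf3fa+/G34R and alike, and the day-7 labels as H3f3a G34R/+. All 10-week animals were labelled male except 1 of the G34W pair, whereas at day 7 there were 2 males and 2 females of either genotype. That G34W animal, replicate 2, is labelled female but has a title that begins with M, as those of the males do. The labels thus leave its sex unsettled, and counts of Y-chromosome genes and Xist were not used here to settle it. The tissue was pulverised whole cortex, so each value is an average over all cell types, and no strain or promoter is named in the labels. Gene counts do not read the substituted base, so genotypes rest on the labels. Of the 49 genes 20 overlap another annotated gene, 18 of them on the opposite strand (Ctsc, Ctsz and Grn among the microglia-enriched ones), and no source used here states whether counting was by strand.

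The files held 23 libraries from 22 animals, with 28414057 to 90067111 counts each, and both libraries of 1 WT animal were summed. At 10 weeks the share of counts on mitochondrial protein-coding genes fell into a low set (0.885 to 1.03%), which held all G34R libraries, and a high set (1.12 to 1.36%), which held all G34V and G34W libraries. WT libraries lay in both sets. In G34W replicate 1 the 10 most counted genes took 31.0% of counts, against 16.1 to 22.3% in the other 10-week libraries. Levels are given in CPM, counts scaled to library size on 1 scale over all animals, and a gene was called where the Benjamini-Hochberg adjusted p of edgeR's quasi-likelihood test over all genes was under 0.05.

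Promoter sequence of 42 of the 49 genes was at hand from RefSeq (GRCm38.p6), as the 250 bases before the transcription start and 50 after it. The letters searched were CACGTG, the E-box at the centre of the TFEB-bound element, and GAGGAAGT, a form of the site of PU.1, the macrophage transcription factor, each on both strands. Neither of these contains the other, whereas the longer GTCACGTG contains the E-box. CACGTG was present in 14 of the 42 genes (33.3%), against 8.09% of all 27025 genes with a window. It was found in 13 of 34 broadly expressed genes and in 1 of 8 microglia-enriched ones, Lgmn. GTCACGTG was present in 11 of 42, against 2.55% of all genes. The full palindromic CLEAR element, of which CACGTG is the core, was found in Cln3 and no other member, against 0.37% of all genes. GAGGAAGT was present in Ctss, Ctsc, Gusb and Gla (9.52%), against 3.69% of all genes. Letters in a window are a description and not a sign that a factor binds there. The 4 promoters below show a membrane protein and a protease that carry several E-boxes, the microglia-enriched gene that carries 1, and a microglia-enriched gene with the other motif. Each is the 250 bases before the start, 5′ to 3′ on the gene's strand, with the motif or its reverse complement in capitals. Lamp1 lies at chr8:13158911-13159160 (plus strand), Ctsd at chr7:142387828-142388077 (minus), Lgmn at chr12:102439093-102439342 (minus) and Ctsc at chr7:88277835-88278084 (plus). GENCODE M21 places the 5′ ends of Lgmn (chr12:102439813) and Ctsd (chr7:142388038) upstream of the RefSeq starts used. The stretch shown for Lgmn therefore lies wholly inside that annotated gene, and that for Ctsd mostly so.
Lamp1: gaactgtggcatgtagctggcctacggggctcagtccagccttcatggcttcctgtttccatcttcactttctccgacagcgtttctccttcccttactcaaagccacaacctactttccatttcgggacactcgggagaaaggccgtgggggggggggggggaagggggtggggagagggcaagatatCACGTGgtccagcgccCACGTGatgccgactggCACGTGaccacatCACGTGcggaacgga
Ctsd: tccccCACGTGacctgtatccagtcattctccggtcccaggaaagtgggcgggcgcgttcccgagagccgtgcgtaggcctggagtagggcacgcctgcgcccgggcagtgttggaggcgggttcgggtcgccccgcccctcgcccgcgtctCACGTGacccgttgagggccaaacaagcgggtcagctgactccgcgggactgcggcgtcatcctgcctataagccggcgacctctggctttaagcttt
Lgmn: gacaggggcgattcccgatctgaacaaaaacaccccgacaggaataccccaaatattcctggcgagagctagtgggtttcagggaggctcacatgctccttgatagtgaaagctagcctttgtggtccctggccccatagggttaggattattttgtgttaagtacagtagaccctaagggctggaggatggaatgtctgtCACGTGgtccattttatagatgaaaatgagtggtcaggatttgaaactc
Ctsc: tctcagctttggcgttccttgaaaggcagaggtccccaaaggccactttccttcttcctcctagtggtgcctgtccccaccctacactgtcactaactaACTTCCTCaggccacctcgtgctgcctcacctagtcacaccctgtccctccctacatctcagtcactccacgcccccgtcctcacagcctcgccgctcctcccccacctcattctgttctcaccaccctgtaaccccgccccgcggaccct

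At 10 weeks, G34R cortex had higher RNA levels of all 9 microglia-enriched lysosomal genes than WT cortex, between 1.26-fold (Lgmn) and 4.35-fold (Lyz2). Of the 40 broadly expressed genes 8 were also higher, Ctsd with the smallest adjusted p, and no member was called lower. The 17 of 49 members called higher compare with 2.95% of all 21274 genes tested, and the lower direction held 2.66% of all genes. At an unadjusted p under 0.05 the same test had 26 members higher and 2 lower, and DESeq2 called 19 higher and 1 lower. The median log2 fold change was 0.88 over the microglia-enriched genes and 0.14 over the broadly expressed ones, against -0.0036 over all genes tested.

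**Figure D1:**
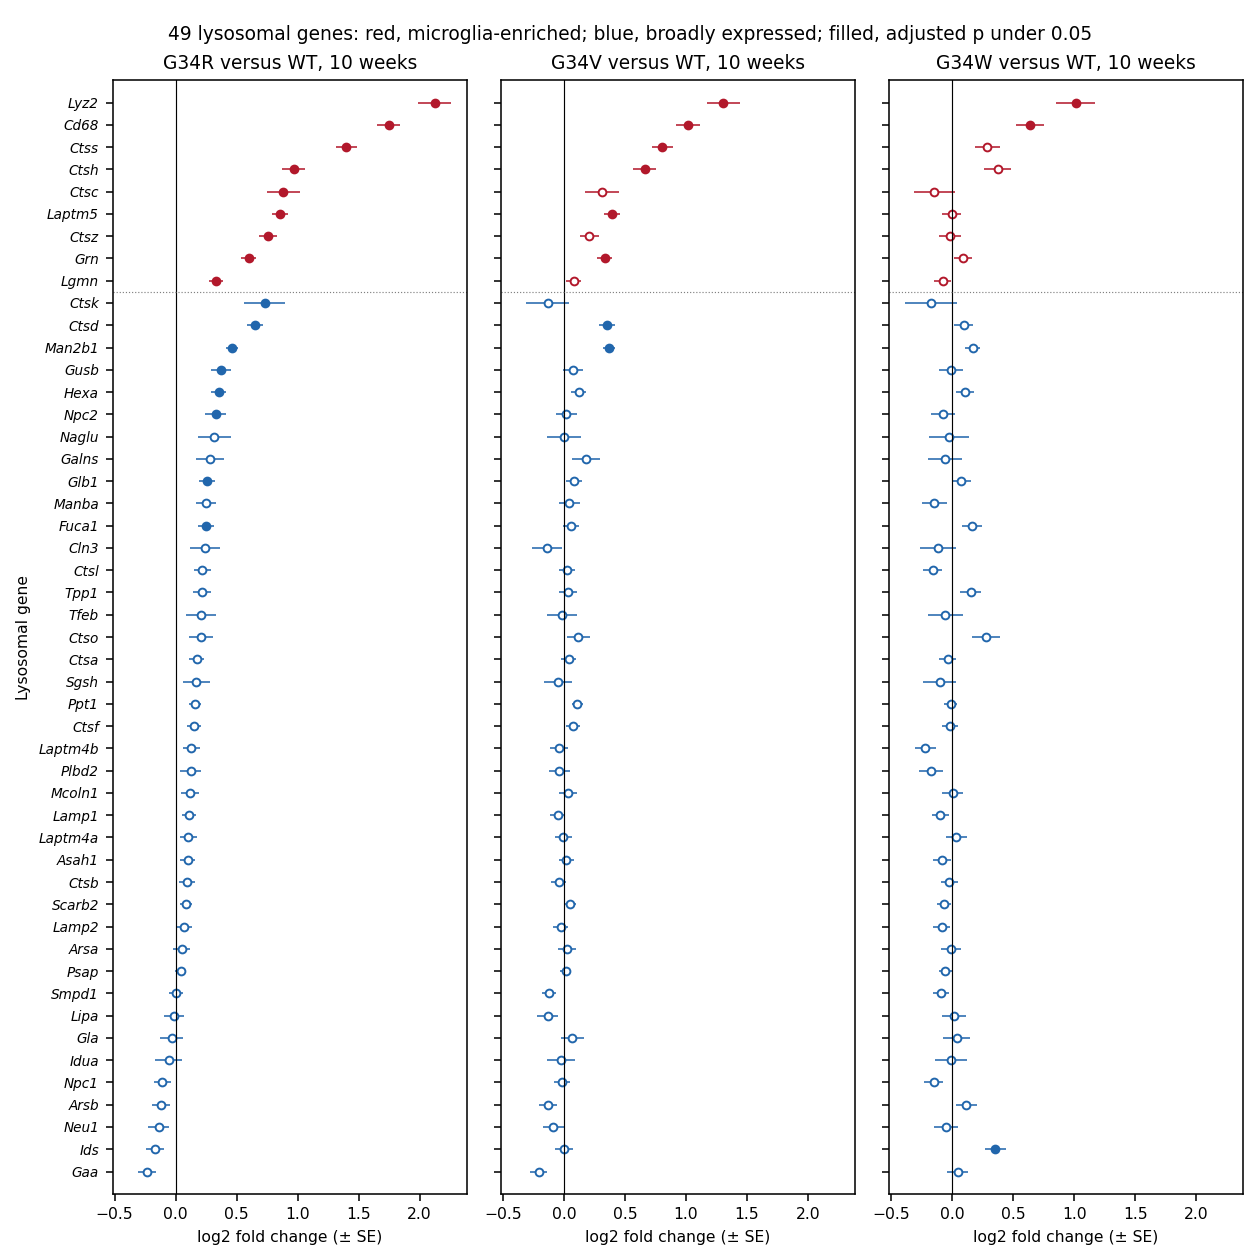
Log2 fold change of each of the 49 lysosomal genes over WT at 10 weeks (x axis, ± SE) in G34R, G34V and G34W cortex, with 1 gene per row, microglia-enriched genes in red above the dotted line and broadly expressed genes in blue below it. Filled points passed an adjusted p of 0.05: 17 genes in G34R, 8 in G34V and 3 in G34W.

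Lysozyme M, the bacterial cell wall hydrolase of macrophages (Lyz2, ENSMUSG00000069516, chr10:117277331-117282321, GRCm38), had the widest difference. Lyz2 stood at 30.3, 23.4 and 22.5 CPM in the G34R animals, against 5.06 to 6.93 CPM (median 5.86) in the 6 WT animals. The lowest G34R animal was above the highest WT animal by a wide margin (log2 fold change 2.12 ± 0.13 (SE), adjusted p = 4.97e-08, edgeR). Reads of Lyz2 and its near-identical neighbour Lyz1 cannot be cleanly split by the counting. Lyz1 had 103 to 152 counts per G34R animal, against 14 to 56 counts per WT animal, and was called higher too (log2 fold change 2.58 ± 0.31 (SE), adjusted p = 3.35e-05, edgeR).

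Cd68 (ENSMUSG00000018774, chr11:69664213-69666153), a heavily glycosylated membrane protein of macrophage lysosomes, measured 17.96, 15.6 and 16.9 CPM in G34R animals, against 4.56 to 5.39 CPM (median 5.01) in WT animals. The groups did not overlap (log2 fold change 1.75 ± 0.09 (SE), adjusted p = 4.31e-09, edgeR). Cathepsin S (Ctss, ENSMUSG00000038642, chr3:95526786-95556403), the cysteine protease that trims the invariant chain in antigen presentation, measured 159, 131 and 132 CPM in G34R animals, against 47.5 to 57.7 CPM (median 53.99) in WT animals. Every G34R animal was again above every WT animal (log2 fold change 1.398 ± 0.09 (SE), adjusted p = 4.14e-08, edgeR).

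The 3 further cathepsins of the class were all higher in G34R. Cathepsin H, an aminopeptidase (Ctsh), stood at 15.7, 15.1 and 14.6 CPM in G34R, against 7.32 to 8.59 CPM (median 7.66) in WT. Its log2 fold change was 0.97 ± 0.09 (SE), with adjusted p = 3.44e-06 in edgeR. Cathepsin C (Ctsc), the dipeptidyl peptidase that activates granule proteases, stood at 15.03, 14.9 and 12.6 CPM in G34R, against 6.34 to 9.25 CPM (median 7.95) in WT. The groups did not overlap (log2 fold change 0.88 ± 0.13 (SE), adjusted p = 0.000407, edgeR). Cathepsin Z, a carboxypeptidase (Ctsz), stood at 55.96, 48.4 and 50.7 CPM in G34R, against 27.8 to 33.02 CPM (median 30.6) in WT (log2 fold change 0.76 ± 0.07 (SE), adjusted p = 4.47e-06, edgeR). For Ctsh and Ctsz too, every G34R animal lay above every WT animal.

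Laptm5, a transmembrane protein of lysosomes in blood-lineage cells, measured 39.1, 34.6 and 36.3 CPM in G34R animals, against 19.1 to 22.2 CPM (median 19.9) in WT animals (log2 fold change 0.86 ± 0.06 (SE), adjusted p = 3.16e-07, edgeR). Progranulin (Grn), a secreted and lysosomal protein whose loss causes a storage disease, measured 58.7, 53.8 and 56.9 CPM in G34R animals, against 35.4 to 38.9 CPM (median 37.2) in WT animals (log2 fold change 0.60 ± 0.06 (SE), adjusted p = 6.09e-06, edgeR). Both genes had every G34R animal above every WT animal. Legumain, the asparaginyl endopeptidase (Lgmn), showed the smallest difference of the class. Lgmn stood at 135, 149 and 138 CPM in G34R, against 103 to 117 CPM (median 113) in WT (log2 fold change 0.33 ± 0.06 (SE), adjusted p = 0.00224, edgeR), and it was the 1 gene of the class whose call was lost in an alternative fit, with runs of animal numbers as a block (adjusted p = 0.0998, edgeR).

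**Figure D2:**
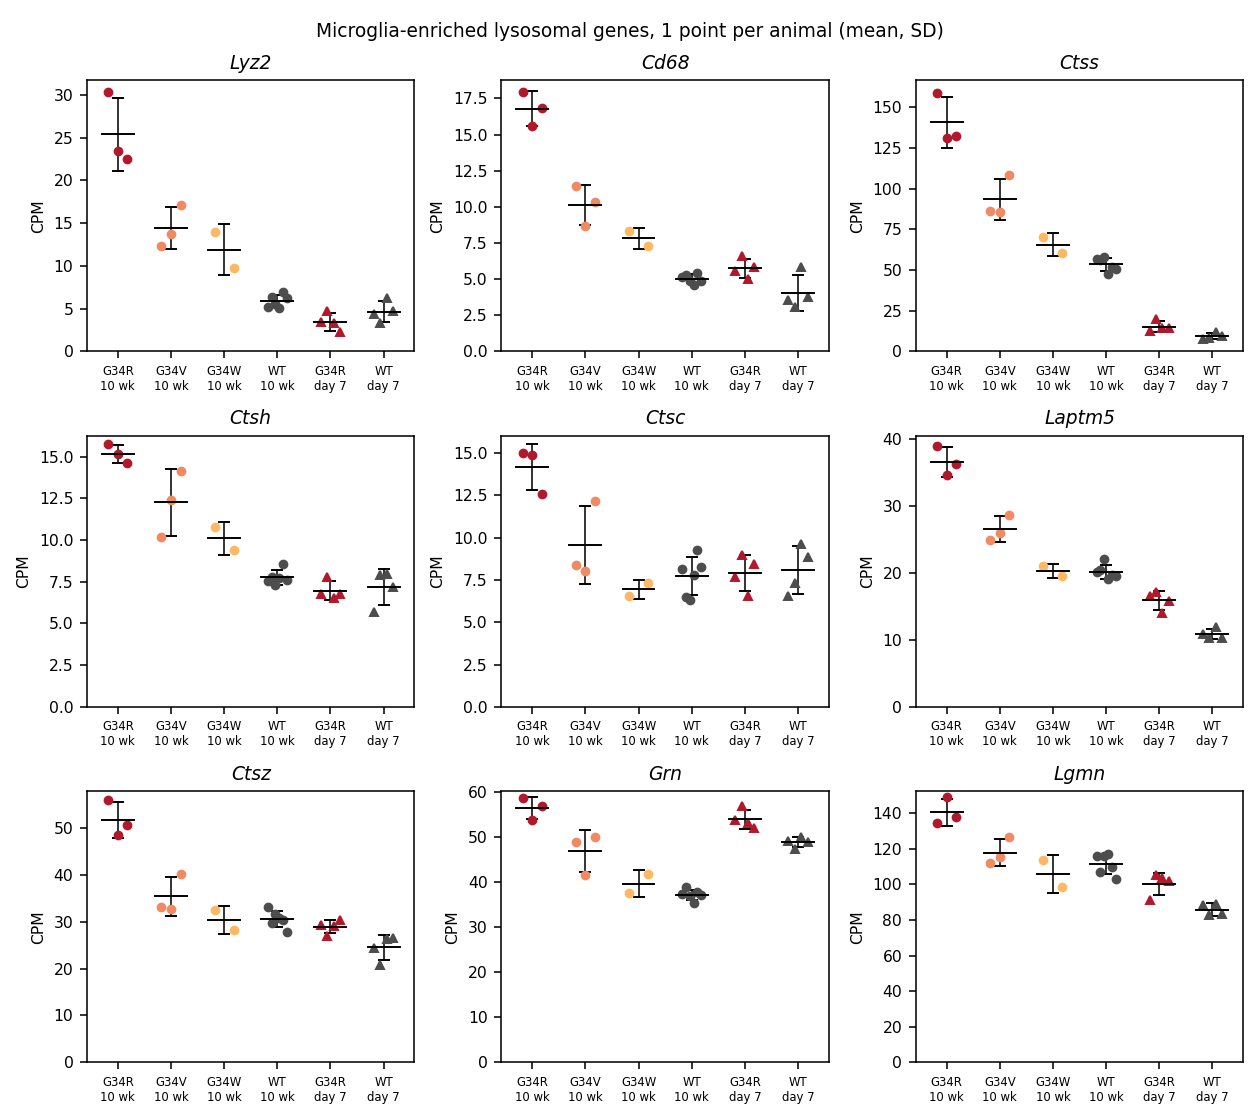
Levels of the 9 microglia-enriched lysosomal genes in CPM (y axis, from 0) in each animal of the 6 groups, with circles for 10 weeks and triangles for day 7. Lines are group means and bars SD. At 10 weeks the 3 G34R animals lie above all 6 WT animals in each of the 9 panels. The share of all genes set apart in this way is not given here.

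The 8 broadly expressed genes called in G34R were 2 cathepsins, 5 glycosidases and 1 lipid carrier. Cathepsin D (Ctsd, ENSMUSG00000007891, chr7:142375911-142388038), the main aspartic protease of lysosomes, measured 545, 508 and 488 CPM in G34R, against 309.9 to 347 CPM (median 328) in WT (log2 fold change 0.65 ± 0.07 (SE), adjusted p = 5.76e-06, edgeR). Alpha-mannosidase (Man2b1, ENSMUSG00000005142, chr8:85083270-85098282) measured 61.9, 60.7 and 65.02 CPM in G34R, against 43.2 to 47.4 CPM (median 45.6) in WT (log2 fold change 0.46 ± 0.05 (SE), adjusted p = 1.93e-05, edgeR). The alpha subunit of beta-hexosaminidase (Hexa) measured 57.3, 53.7 and 55.4 CPM in G34R, against 41.6 to 44.8 CPM (median 43.4) in WT (log2 fold change 0.35 ± 0.06 (SE), adjusted p = 0.00202, edgeR). For these 3 genes the groups did not overlap, and the calls held in every alternative fit run.

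The other 5 calls lay nearer the threshold. Cathepsin K (Ctsk), a collagen-degrading protease, measured 4.41, 3.798 and 4.85 CPM in G34R, against 2.12 to 3.13 CPM (median 2.62) in WT (log2 fold change 0.73 ± 0.17 (SE), adjusted p = 0.0132, edgeR). Beta-glucuronidase (Gusb) measured 14.2, 12.3 and 12.5 CPM in G34R, against 9.23 to 11.1 CPM (median 9.97) in WT (log2 fold change 0.37 ± 0.08 (SE), adjusted p = 0.01, edgeR). The cholesterol carrier Npc2 measured 58.5, 54.8 and 59.2 CPM in G34R, against 39.9 to 51.9 CPM (median 45.4) in WT (log2 fold change 0.33 ± 0.08 (SE), adjusted p = 0.0272, edgeR). In all 3 the G34R animals lay above the WT animals. Alpha-fucosidase (Fuca1) measured 29.6, 29.6 and 26.1 CPM in G34R, against 22.2 to 25.4 CPM (median 23.99) in WT (log2 fold change 0.25 ± 0.07 (SE), adjusted p = 0.0387, edgeR). Beta-galactosidase (Glb1) measured 27.99, 29.6 and 30.8 CPM in G34R, against 22.2 to 26.7 CPM (median 24.6) in WT (log2 fold change 0.25 ± 0.07 (SE), adjusted p = 0.0303, edgeR). These groups were separated by small gaps, and all 5 genes lost their call when runs of animal numbers were a block (adjusted p of 0.0878 to 0.399, edgeR). Without G34R replicate 1 each of the 5 also missed the threshold.

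**Figure D3:**
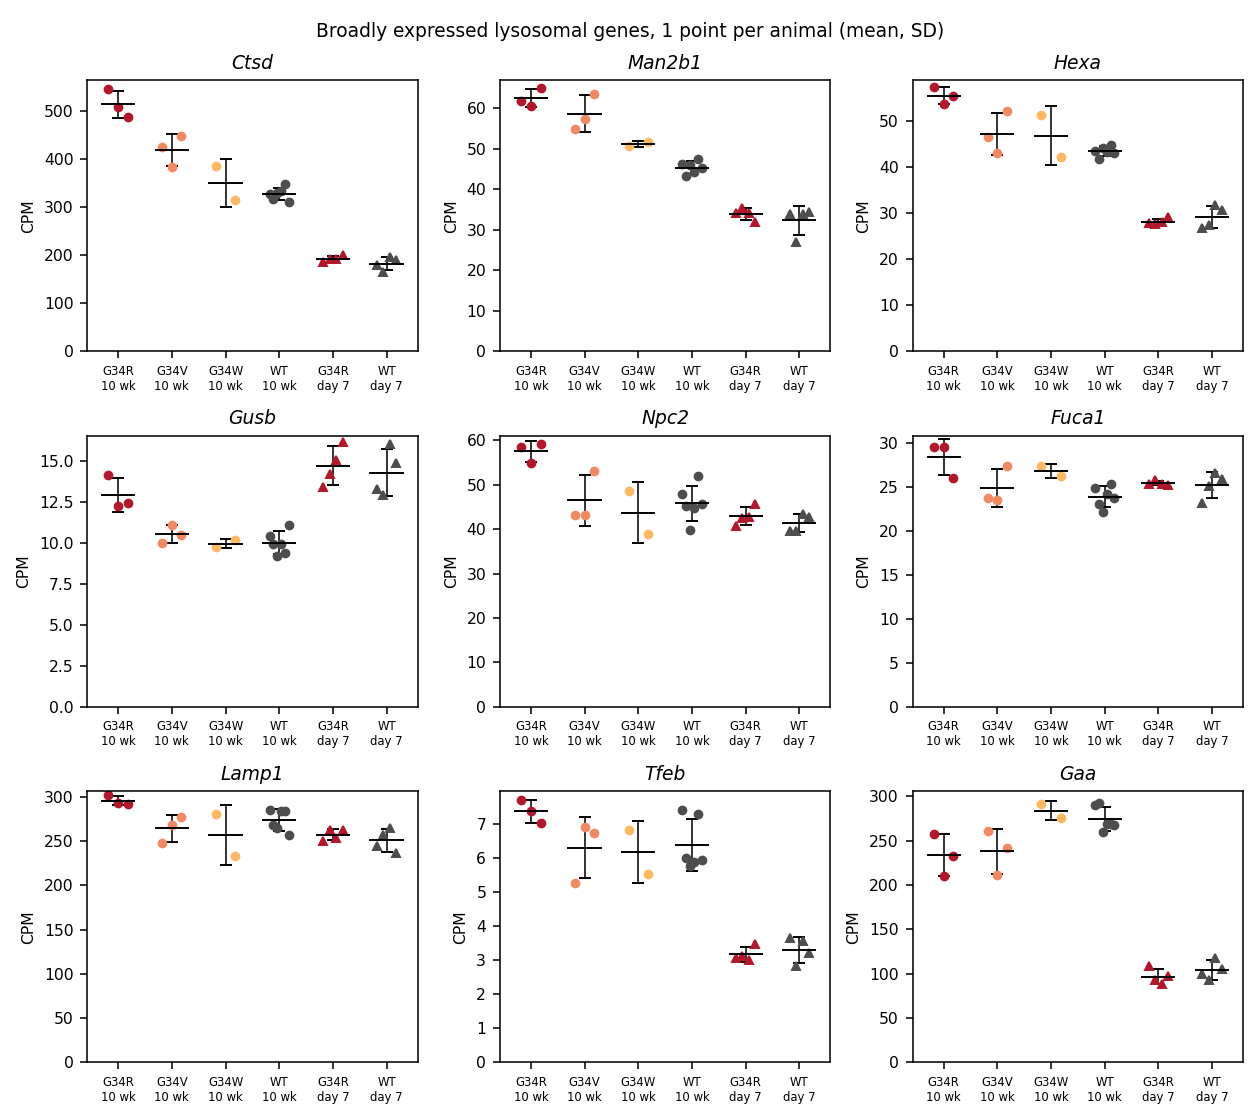
Levels of 9 broadly expressed lysosomal genes in CPM (y axis, from 0) in each animal of the 6 groups, with circles for 10 weeks and triangles for day 7. Lines are group means and bars SD. At 10 weeks G34R animals lie above WT animals for Ctsd, Man2b1, Hexa, Gusb, Npc2 and Fuca1. They lie just above them for Lamp1 and below them for Gaa, and neither Lamp1 nor Gaa was called.

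By role, 7 of 13 proteases, 6 of 12 glycosidases with lysozyme, 2 of 9 membrane proteins, 1 of 8 lipid hydrolases and lipid-handling proteins, and progranulin were called higher in G34R, while none of the 5 sulfatases was called (3 estimates above 0 and 2 below). The general markers of the organelle were not among the calls. Lamp1, the most used lysosomal membrane marker, measured 302, 293 and 292 CPM in G34R, against 257 to 285 CPM (median 276) in WT (log2 fold change 0.11 ± 0.06 (SE), adjusted p = 0.367, edgeR). Lamp2, a related membrane protein that serves in chaperone-mediated autophagy, measured 86.7, 84.3 and 82.5 CPM in G34R, against 76.9 to 86.3 CPM (median 79.9) in WT (log2 fold change 0.07 ± 0.06 (SE), adjusted p = 0.607, edgeR). Tfeb, the transcriptional regulator of the organelle, measured 7.702, 7.37 and 7.02 CPM in G34R, against 5.78 to 7.41 CPM (median 5.97) in WT (log2 fold change 0.21 ± 0.12 (SE), adjusted p = 0.387, edgeR). The G34R and WT ranges overlapped for Lamp2 and Tfeb and lay just apart for Lamp1, and none of the 3 passed the test.

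Of the 49 genes 8 had an estimate below 0 in G34R, and none of them passed in edgeR, whereas DESeq2 called 1 glycosidase lower. Acid alpha-glucosidase (Gaa), which degrades glycogen, was the lowest, with 258, 210.2 and 232 CPM in G34R, against 260.0 to 292 CPM (median 268) in WT (log2 fold change -0.24 ± 0.07 (SE), adjusted p = 0.0722, edgeR). Every G34R animal was below every WT animal for Gaa, by a small gap. The others were the sulfatases Ids (-0.17 on the log2 scale) and Arsb (-0.12), the sialidase Neu1 (-0.14), the cholesterol exporter Npc1 (-0.11), alpha-iduronidase Idua (-0.06), alpha-galactosidase Gla (-0.03) and acid lipase Lipa (-0.01). Prosaposin (Psap), the precursor of the saposins and the member with the highest WT level per kilobase of exon (540.4 CPM per kilobase at 10 weeks), had a log2 fold change of 0.04 ± 0.05 (SE). Over the alternative fits the estimates of Psap (-0.01 to 0.07), Idua (-0.12 to 0.02), Gla (-0.10 to 0.06) and Lipa (-0.10 to 0.07) took both signs, and none was called.

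Homeostatic microglial markers moved with these genes. Of 14 such markers 10 were called higher in G34R at 10 weeks, among them the chemokine receptor Cx3cr1 (log2 fold change 0.67 ± 0.08 (SE), adjusted p = 2.22e-05, edgeR), and their median log2 fold change was 0.50. The summed level of the 14 was 597 to 649 CPM in G34R animals, against 394 to 428 CPM in WT animals, and no marker was at 0 in any group. A change in the number of cells of a type, up or down, and a change in RNA per cell cannot be told apart in such tissue. The summed level of 10 perivascular macrophage markers was 33.7 to 36.3 CPM in G34R, against 25.3 to 35.7 CPM in WT. All 10 had estimates above 0, with a median log2 fold change of 0.26, and 1 was called (Cbr2). That of 11 monocyte and neutrophil markers was 3.98 to 5.33 CPM in G34R, against 2.96 to 6.52 CPM in WT, and 7 of the 11 averaged under 0.1 CPM in G34R, against 5 in WT. The oligodendrocyte marker sum was 3274 to 4218 CPM in G34R, against 4336 to 5682 CPM in WT, with none of 10 called by edgeR (0 higher and 4 lower at an unadjusted p under 0.05, and 1 lower by DESeq2). The neuron marker sum was 7360.1 to 7460.5 CPM in G34R, against 7559 to 8652 CPM in WT, with 9 of 10 estimates below 0 and none called by edgeR (0 higher and 2 lower at an unadjusted p under 0.05, and 1 lower by DESeq2). The part of these markers in the result was not tested.

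Set against the summed CPM of 13 of those 14 markers, the members differed among themselves. Lyz2 came to 5.44 to 6.73% of the marker sum in G34R animals, against 1.69 to 2.28% in WT animals. Cd68 came to 3.68 to 4.08% in G34R, against 1.54 to 1.77% in WT, and Ctss to 31.0 to 35.3% in G34R, against 16.0 to 18.9% in WT. Laptm5 was at 8.19 to 8.78% in G34R, against 6.39 to 7.08% in WT, and Ctsz at 11.4 to 12.4% in G34R, against 9.08 to 10.8% in WT. Ctsh was at 3.49 to 3.58% in G34R, against 2.34 to 2.83% in WT. These ratios were apart between the groups, whereas Ctsc lay at the edge (3.05 to 3.53% in G34R, against 2.03 to 3.04% in WT). Grn overlapped (12.7 to 13.8% in G34R, against 11.8 to 13.1% in WT), as did Lgmn (29.9 to 35.2% in G34R, against 33.5 to 39.5% in WT), for which the G34R values were the lower ones.

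Within the low mitochondrial set alone, with 3 G34R libraries and 3 WT libraries, 14 members were called. There the log2 fold change was 2.25 for Lyz2 (adjusted p = 2.34e-05, edgeR), 1.79 for Cd68 (adjusted p = 1.97e-05, edgeR), 1.399 for Ctss (adjusted p = 0.000248, edgeR) and 0.64 for Ctsd (adjusted p = 0.000125, edgeR), and Ctsk, Glb1 and Fuca1 missed the threshold. In addition, the libraries of the WT animal sequenced in both sets differed by a median of 0.07 (absolute log2) over the 49 genes and by 0.57 at most, for Ctsh.

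**Figure D4:**
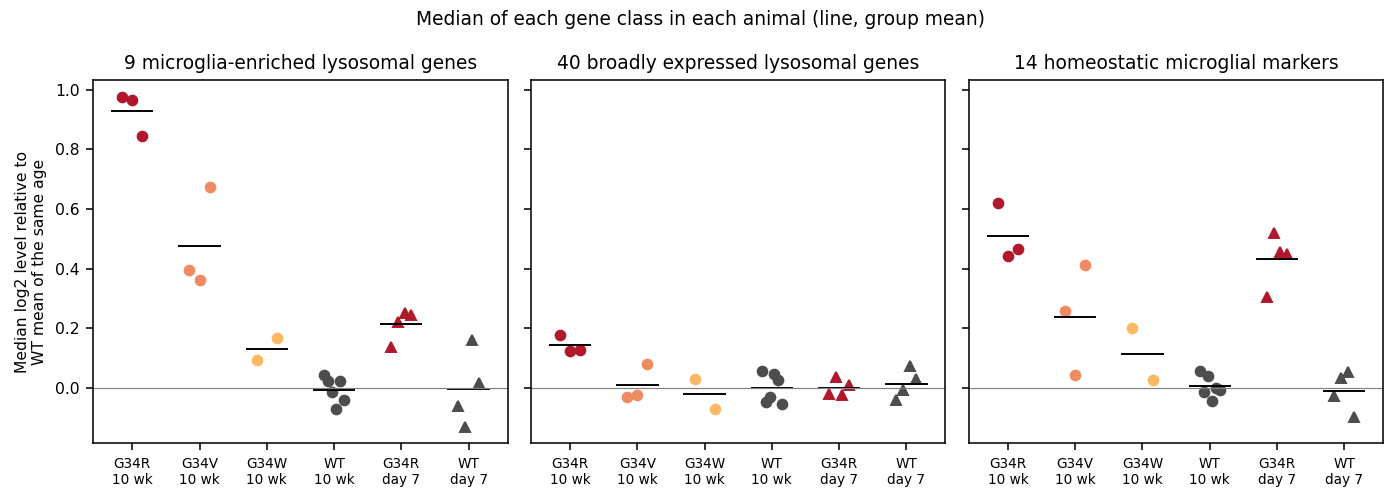
Median log2 level in each animal relative to the WT mean of the same age (y axis) for the 9 microglia-enriched lysosomal genes, the 40 broadly expressed ones and the 14 homeostatic microglial markers, with 1 point per animal and lines for group means. G34R animals at 10 weeks lie at 0.85 to 0.98 in the first panel and at 0.12 to 0.18 in the second, against -0.07 to 0.04 and -0.05 to 0.06 in WT animals.

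In G34V cortex microglia-enriched genes again made up most of the calls, with smaller estimates than in G34R for all 9. Of the 9, 6 were called higher (Lyz2, Cd68, Ctss, Ctsh, Laptm5 and Grn), together with Ctsd and Man2b1 of the broadly expressed genes, and none of the 49 was called lower. That makes 8 of 49, against 1.57% of all genes higher and 2.68% lower. By edgeR's unadjusted p under 0.05 there were 11 higher and 2 lower, and DESeq2 called 8 higher and 0 lower. The median log2 fold change was 0.39 over the microglia-enriched genes and 0.02 over the broadly expressed ones, against 0.0083 over all genes. G34V, G34R and G34W were all compared with the same 6 WT animals.

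Lyz2 measured 12.4, 13.8 and 17.1 CPM in G34V animals, against 5.06 to 6.93 CPM (median 5.86) in WT animals (log2 fold change 1.31 ± 0.14 (SE), adjusted p = 1.75e-05, edgeR). Cd68 measured 11.4, 8.63 and 10.3 CPM in G34V, against 4.56 to 5.39 CPM (median 5.01) in WT (log2 fold change 1.02 ± 0.10 (SE), adjusted p = 6.23e-06, edgeR). Ctss measured 86.5, 85.3 and 108 CPM in G34V, against 47.5 to 57.7 CPM (median 53.99) in WT (log2 fold change 0.81 ± 0.09 (SE), adjusted p = 2.66e-05, edgeR). In these 3 macrophage genes each G34V animal was above each WT animal. Ctsh measured 10.2, 12.4 and 14.2 CPM in G34V, against 7.32 to 8.59 CPM (median 7.66) in WT (log2 fold change 0.66 ± 0.09 (SE), adjusted p = 0.000344, edgeR). Laptm5 measured 24.98, 25.9 and 28.7 CPM in G34V, against 19.1 to 22.2 CPM (median 19.9) in WT (log2 fold change 0.39 ± 0.07 (SE), adjusted p = 0.00165, edgeR). Grn measured 49.02, 41.7 and 50.1 CPM in G34V, against 35.4 to 38.9 CPM (median 37.2) in WT (log2 fold change 0.34 ± 0.06 (SE), adjusted p = 0.00339, edgeR). The ranges were apart here as well.

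The remaining 3 of the class, Ctsc, Ctsz and Lgmn, had log2 fold changes of 0.31 ± 0.14, 0.21 ± 0.08 and 0.08 ± 0.06 (SE) in G34V and overlapped with WT. For Ctsc and Ctsz, G34V replicate 3 (12.2 and 40.2 CPM) stood above its 2 group mates. Ctsd measured 425, 382 and 448 CPM in G34V, against 309.9 to 347 CPM (median 328) in WT (log2 fold change 0.35 ± 0.07 (SE), adjusted p = 0.0036, edgeR). Man2b1 measured 54.8, 57.4 and 63.6 CPM in G34V, against 43.2 to 47.4 CPM (median 45.6) in WT (log2 fold change 0.37 ± 0.05 (SE), adjusted p = 0.000344, edgeR), and here the G34V animals overlapped with the G34R animals. Ctsk, called in G34R, measured 2.46, 1.73 and 2.99 CPM in G34V and overlapped with WT. Tfeb and Lamp1 had log2 fold changes of -0.02 ± 0.12 and -0.05 ± 0.06 (SE), and that of Tfeb ranged from -0.09 to 0.10 over the alternative fits.

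Of the 14 homeostatic microglial markers 5 were called higher in G34V, and their sum was 456 to 567 CPM in G34V animals, against 394 to 428 CPM in WT animals. The perivascular macrophage sum was 34.7 to 42.7 CPM in G34V, against 25.3 to 35.7 CPM in WT, with Stab1 called. Of these 10 markers 9 had estimates above 0 and 1 below, with a median log2 fold change of 0.35. Oligodendrocyte markers were lower, with 4 of 10 called and a sum of 2719 to 3546 CPM in G34V, against 4336 to 5682 CPM in WT. The part of these markers in the lysosomal result was not tested. Within the high mitochondrial set alone, 7 members were called, among them Lyz2 at 1.24 (adjusted p = 0.000651, edgeR), and Grn was not (adjusted p = 0.0595, edgeR). With runs of animal numbers as a block, 5 members were called in G34V.

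In G34W cortex 3 of 49 members were called, all higher, against 0.564% of all genes higher and 1.05% lower. At an unadjusted p under 0.05 edgeR had 7 higher and 1 lower, and DESeq2 called 4 higher and 0 lower. The 3 genes called were Lyz2, Cd68 and the sulfatase Ids, which removes sulfate from heparan and dermatan sulfate. Lyz2 measured 13.98 and 9.79 CPM in the 2 G34W animals, against 5.06 to 6.93 CPM (median 5.86) in WT animals (log2 fold change 1.01 ± 0.16 (SE), adjusted p = 0.0048, edgeR). Cd68 measured 8.31 and 7.31 CPM in G34W, against 4.56 to 5.39 CPM (median 5.01) in WT (log2 fold change 0.64 ± 0.12 (SE), adjusted p = 0.0111, edgeR). Ids measured 346 and 409.9 CPM in G34W, against 265 to 314 CPM (median 299) in WT (log2 fold change 0.35 ± 0.08 (SE), adjusted p = 0.0424, edgeR). Both G34W animals lay above all WT animals for these 3 genes.

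The calls in G34W rested on few animals. Without G34W replicate 1, whose library stood apart, none of the 49 was called (adjusted p = 0.111 for Lyz2 and 0.125 for Cd68, edgeR). Ids lost its call in 12 of 17 alternative fits, among them the fit with the sex label as a covariate. At 10 weeks only G34W replicate 2 was labelled female. That fit therefore rests on G34W replicate 1 alone and is no separate adjustment for sex. Ctss and Ctsh had log2 fold changes of 0.29 ± 0.10 and 0.38 ± 0.11 (SE), with adjusted p of 0.17 and 0.0997 in edgeR. Laptm5, Ctsz, Lgmn and Ctsc had estimates of 0.00, -0.02, -0.08 and -0.15 (log2). The microglial marker sum was 438 to 485 CPM in G34W, against 394 to 428 CPM in WT, with 1 of 14 called, Fcrls. The oligodendrocyte marker sum was 2941 to 4464 CPM in G34W, against 4336 to 5682 CPM in WT, with 2 of 10 called lower. All 10 choroid plexus markers had estimates below 0, with a median of -1.26 (log2). Their sum was 16.5 to 216 CPM in G34W, against 157 to 978 CPM in WT. None of them was called by edgeR or DESeq2, and at an unadjusted p under 0.05 edgeR had 0 higher and 2 lower. The part of these markers in the result was not tested.

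Between the substitutions, G34R was set against G34V, G34R against G34W, and G34V against G34W. G34R was higher than G34V for 5 of the 49 genes, all microglia-enriched, against 0.174% of all genes higher and 0.0564% lower. Lyz2 was at 30.3, 23.4 and 22.5 CPM in G34R and 12.4, 13.8 and 17.1 CPM in G34V (log2 fold change 0.82 ± 0.16 (SE), adjusted p = 0.0396, edgeR). Cd68 was at 17.96, 15.6 and 16.9 CPM in G34R and 11.4, 8.63 and 10.3 CPM in G34V (log2 fold change 0.73 ± 0.11 (SE), adjusted p = 0.00862, edgeR). Ctss, Laptm5 and Ctsz differed by 0.59, 0.46 and 0.55 on the log2 scale. The G34R and G34V libraries lie in different mitochondrial sets, and with that set as a block no member passed (adjusted p = 0.238 for Lyz2 and 0.122 for Cd68, edgeR). Genotype and library set can be told apart here only through the WT libraries. At an unadjusted p under 0.05, 20 members were higher in G34R than in G34V by edgeR, and DESeq2 called 10; neither had any lower. Without G34R replicate 1 or G34V replicate 2 no member was called, and 1 was called without G34V replicate 1.

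G34R was higher than G34W for 12 members and lower for 1, against 0.945% and 0.935% of all genes. All 9 microglia-enriched genes were among the 12, with log2 differences of 0.41 (Lgmn) to 1.11 (Ctss), and Ctsd, Man2b1 and cathepsin L (Ctsl) completed them. Ctsl, which is broadly expressed and not called against WT, measured 88.8, 99.4 and 93.4 CPM in G34R and 75.5 and 69.2 CPM in G34W (log2 fold change 0.38 ± 0.09 (SE), adjusted p = 0.0358, edgeR). The gene that was lower was Ids, at 284, 237 and 269 CPM in G34R and 346 and 409.9 CPM in G34W (log2 fold change -0.52 ± 0.09 (SE), adjusted p = 0.0103, edgeR). Ctss and Laptm5 were the 2 calls that held in every alternative fit run. With the library set as a block 6 members were called. G34R against G34W also gave fewer calls without G34R replicate 2 and without G34W replicate 2, 8 in each fit. Of the 14 homeostatic microglial markers 3 were called higher, with a sum of 597 to 649 CPM in G34R and 438 to 485 CPM in G34W. Of 10 perivascular macrophage markers 1 was called higher. Of 10 astrocyte markers 1 was called higher and 2 lower, with a sum of 4122 to 4179 CPM in G34R and 4757 to 5501 CPM in G34W. All 10 choroid plexus markers had estimates above 0, with a median of 1.43 (log2) and a sum of 455 to 756 CPM in G34R and 16.5 to 216 CPM in G34W, and none was called by edgeR (3 higher and 0 lower at an unadjusted p under 0.05, and 1 higher by DESeq2). The part of these markers in the result was not tested.

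G34V and G34W did not differ for any of the 49 genes at an adjusted p of 0.05 in edgeR, against 0.0376% of all genes higher and 0.113% lower. At an unadjusted p under 0.05 there were 10 members higher and 3 lower, and DESeq2 called 2 higher and 1 lower. The nearest was Laptm5, with 24.98, 25.9 and 28.7 CPM in G34V and 20.996 and 19.5 CPM in G34W (log2 fold change 0.40 ± 0.09 (SE), adjusted p = 0.082, edgeR). Ctss followed, with 86.5, 85.3 and 108 CPM in G34V and 70.3 and 60.4 CPM in G34W (log2 fold change 0.52 ± 0.12 (SE), adjusted p = 0.089, edgeR). For both genes the ranges were apart, and 2 G34W animals limit this comparison. All 10 choroid plexus markers had estimates above 0, with a median of 1.73 (log2). Their sum was 250 to 1092 CPM in G34V and 16.5 to 216 CPM in G34W. None was called by edgeR (5 higher and 0 lower at an unadjusted p under 0.05, and 1 higher by DESeq2). The part of these markers in the result was not tested. Without G34W replicate 2, 1 member was called.

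At postnatal day 7, G34R and WT cortex differed for few lysosomal genes. Laptm5 was called higher and Arsb lower, which is 1 of 49 in each direction, against 0.112% of all 20451 genes tested higher and 0.196% lower. Laptm5 measured 16.6, 17.2, 14.01 and 15.9 CPM in G34R animals, against 10.9, 10.3, 11.95 and 10.3 CPM in WT animals (log2 fold change 0.56 ± 0.09 (SE), adjusted p = 0.0329, edgeR). Arylsulfatase B (Arsb), which desulfates dermatan and chondroitin sulfate, measured 26.3, 24.6, 22.7 and 22.7 CPM in G34R, against 31.9, 30.6, 28.2 and 27.7 CPM in WT (log2 fold change -0.29 ± 0.05 (SE), adjusted p = 0.048, edgeR). The groups were apart in both genes. Neither call held in all alternatives: with single animals left out the adjusted p reached 0.171 for Laptm5 and 0.211 for Arsb (edgeR), and without a sex covariate Arsb missed the threshold too. No member was called without any 1 of G34R replicates 1, 2 and 4 and WT replicates 1, 2 and 4.

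The other microglia-enriched genes were mixed at day 7. Ctss measured 12.2, 19.6, 14.5 and 14.3 CPM in G34R, against 7.696, 8.39, 11.7 and 9.504 CPM in WT (log2 fold change 0.72 ± 0.17 (SE), adjusted p = 0.241, edgeR). Lyz2, the widest difference at 10 weeks, measured 3.37, 4.76, 3.31 and 2.302 CPM in G34R, against 4.31, 3.27, 6.199 and 4.69 CPM in WT (log2 fold change -0.42 ± 0.26 (SE), adjusted p = 0.802, edgeR). Cd68 measured 5.53, 6.61, 5.02 and 5.802 CPM in G34R, against 3.55, 3.07, 5.85 and 3.73 CPM in WT (log2 fold change 0.53 ± 0.19 (SE), adjusted p = 0.527, edgeR). The groups were apart for Ctss and overlapped for Lyz2 and Cd68. Lgmn, Ctsz and Grn had log2 fold changes of 0.23, 0.25 and 0.15 with ranges apart, while Ctsh and Ctsc were at -0.04 and -0.01 (log2). The class median was 0.23 over the 9 genes and 0.02 over the 40 others. Unadjusted, 8 members had a p under 0.05 and a higher level and 2 a lower one, and DESeq2 called 4 higher and 1 lower.

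Ctsk had the largest estimate at day 7, with 1 G34R animal far above the others. It measured 4.88, 5.94, 3.94 and 11.8 CPM in G34R, against 2.42, 2.58, 3.84 and 3.28 CPM in WT (log2 fold change 1.14 ± 0.31 (SE), adjusted p = 0.341, edgeR). Microglial markers were higher at day 7 as well. The sum of the 14 was 228 to 252 CPM in G34R, against 184 to 200.3 CPM in WT, with Cx3cr1, Fcrls and P2ry12 called and a median log2 fold change of 0.42. The perivascular macrophage sum overlapped, at 58.2 to 67.5 CPM in G34R, against 45.1 to 83.2 CPM in WT. Relative to 13 microglial markers, Lyz2 came to 1.17 to 2.396% in G34R at day 7, against 2.33 to 4.08% in WT, and Ctss to 6.76 to 9.88% in G34R, against 5.51 to 7.69% in WT. Laptm5 came to 7.53 to 9.25% in G34R, against 7.35 to 7.86% in WT, and these ranges overlapped. Grn (26.5 to 29.9% in G34R, against 32.9 to 35.4% in WT) and Lgmn (50.8 to 55.5% in G34R, against 58.7 to 63.4% in WT) were lower relative to the markers, with ranges apart, as were Ctsh and Ctsc. The part of these markers in the Laptm5 result was not tested.

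Whether the G34R difference itself changed with age was tested as an interaction over all animals. For 9 members the G34R difference from WT was larger at 10 weeks than at day 7, against 0.562% of all 22417 genes, and for no member was it called smaller, against 0.602% of all genes. At an unadjusted p under 0.05, 19 members were larger at 10 weeks and 0 smaller by edgeR, and DESeq2 called 10 larger and 0 smaller. The 6 microglia-enriched genes were Lyz2, Cd68, Ctsh, Ctsc, Ctsz and Grn, and the 3 broadly expressed ones Ctsd, Hexa and Man2b1. The interaction was 2.55 ± 0.28 (log2, SE) for Lyz2 (adjusted p = 3.22e-05, edgeR), 1.25 ± 0.20 for Cd68 (adjusted p = 0.00117, edgeR) and 1.02 ± 0.15 for Ctsh (adjusted p = 0.000443, edgeR). For Ctsc and Ctsz it was 0.92 and 0.52, for Grn 0.46, and for Ctsd, Hexa and Man2b1 0.57, 0.41 and 0.40. Lyz2, Cd68, Ctsh, Grn and Ctsd held in every alternative fit run, and 5 members were called without G34R replicate 1 of the 10-week group or WT replicate 4 of day 7.

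For 3 microglia-enriched genes no change of the G34R difference with age was called. Ctss had an interaction of 0.70 ± 0.19 (log2, SE; adjusted p = 0.0883, edgeR), Laptm5 of 0.31 ± 0.10 (adjusted p = 0.2, edgeR) and Lgmn of 0.11 ± 0.08 (adjusted p = 0.702, edgeR). Among the 14 homeostatic microglial markers the median interaction was 0.07, against 0.70 over the 9 microglia-enriched lysosomal genes. The G34R animals at 10 weeks were all males, whereas each day-7 genotype held both sexes. The labels name no batch, so a batch between the ages cannot be told apart from age.

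**Figure D5:**
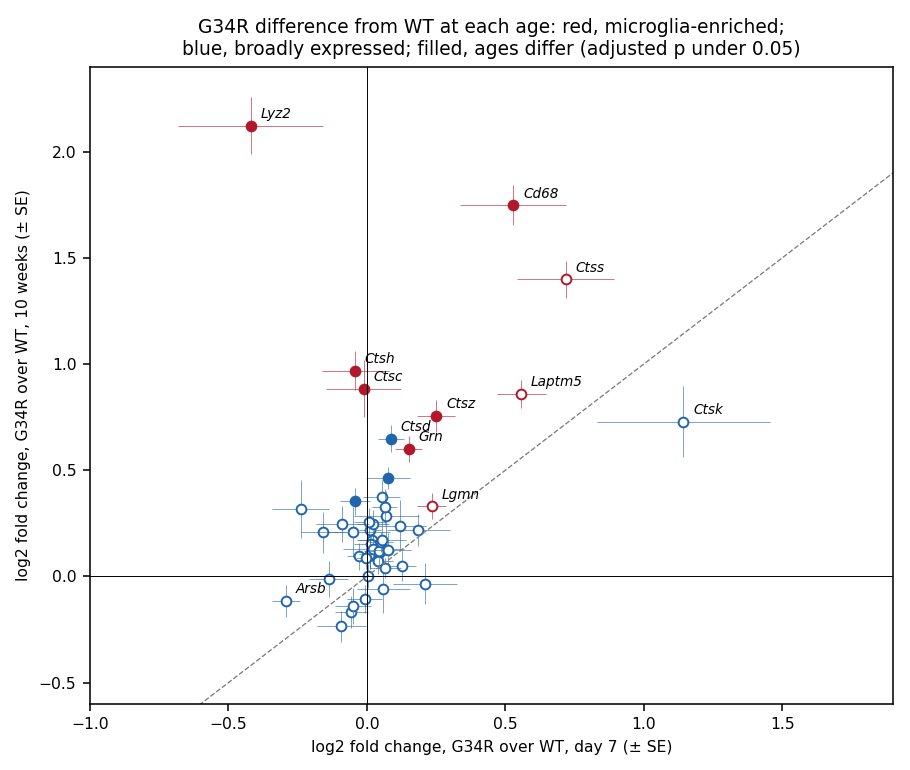
Log2 fold change of G34R over WT at 10 weeks (y axis, ± SE) against that at day 7 (x axis, ± SE) for the 49 lysosomal genes, microglia-enriched in red and broadly expressed in blue, with the dashed line where both are equal. Filled points are the 9 genes whose G34R difference changed with age; Lyz2 lies highest at 10 weeks (2.12) and below 0 at day 7 (-0.42).

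With age in WT cortex, 32 members were higher at 10 weeks than at day 7 and 4 were lower. Of all genes 33.3% were called higher and 34.4% lower in this comparison. The count in either direction, 36 of 49 members against 67.7% of all genes, is therefore no result about these genes. By direction the members lay mostly on the higher side, with a median log2 fold change of 0.38, against -0.01 over all genes. Estimates were above 0 for 77.6% of members, against 49.3% of all genes. Age and any batch between the ages cannot be told apart here. Ctss rose most, with 47.5 to 57.7 CPM (median 53.99) in WT animals at 10 weeks, against 7.696, 8.39, 11.7 and 9.504 CPM in WT animals at day 7 (log2 fold change 2.51 ± 0.13 (SE), adjusted p = 1.25e-12, edgeR). Laptm4b, a membrane protein of late endosomes and lysosomes, measured 55.4 to 71.3 CPM (median 63.95) at 10 weeks, against 12.1, 14.2, 17.8 and 13.9 CPM at day 7 (log2 fold change 2.14 ± 0.09 (SE), adjusted p = 2.85e-16, edgeR). Both genes were far apart between the ages. Cathepsin O (Ctso), tripeptidyl peptidase (Tpp1), Gaa and Neu1 rose by 1.48, 1.398, 1.401 and 1.25 on the log2 scale.

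The 4 members that fell with age in WT were Gusb (-0.51 ± 0.08 on the log2 scale, SE), Galns (-0.40 ± 0.10), Grn (-0.39 ± 0.05) and Glb1 (-0.19 ± 0.06). Grn measured 35.4 to 38.9 CPM (median 37.2) in WT at 10 weeks, against 49.2, 47.4, 50.02 and 48.8 CPM in WT at day 7, so that G34R animals at 10 weeks (58.7, 53.8 and 56.9 CPM) stood above both. Microglial markers differed with age as well, with 12 of 14 called higher at 10 weeks and a median of 1.09 (log2). Oligodendrocyte markers had all 10 called higher, with a median of 4.74. Tfeb was higher at 10 weeks (log2 fold change 0.95 ± 0.11 (SE), adjusted p = 6.86e-08, edgeR), as was Lamp2 (log2 fold change 0.87 ± 0.06 (SE), adjusted p = 8.53e-13, edgeR).

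Other genes of the pathway were examined as 6 lists, none of which includes a member. In G34R at 10 weeks, 4 of 29 further lysosomal genes were called higher and none lower by edgeR (9 higher and 1 lower at an unadjusted p under 0.05, and 4 higher by DESeq2), with a median of 0.07. Among them, Pla2g15 and Cd63 had log2 fold changes of 0.31 and 0.44. In G34V 2 of the 29 were called higher, among them Pla2g15, and Litaf was called lower, and in G34W Litaf was called lower.

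Of 18 subunits of the V-ATPase, the proton pump that acidifies the lysosome, and of 17 autophagy genes, none was called in G34R by edgeR. With unadjusted p under 0.05 there was 1 subunit higher, and there were 2 autophagy genes higher and 1 lower, and DESeq2 called 1 autophagy gene higher and no subunit. Of 22 genes for sorting to lysosomes Sumf2, a relative of the enzyme that activates sulfatases, was called (log2 fold change 0.43 ± 0.09 (SE), adjusted p = 0.00655, edgeR). At an unadjusted p under 0.05 edgeR had 2 of the 22 higher and 2 lower, and DESeq2 called 1 higher. Of 21 genes that control TFEB, Rragb, a GTPase of the nutrient-sensing complex, was called lower (log2 fold change -0.28 ± 0.07 (SE), adjusted p = 0.0203, edgeR). Of all genes 2.95% were called higher and 2.66% lower, so 1 call in a list of such size is no result about the list. On the list of TFEB control, edgeR had 1 gene higher and 3 lower at an unadjusted p under 0.05, and DESeq2 called 3 lower. In G34V the same list held Zkscan3, a repressor of autophagy genes, as higher and the calcineurin subunit gene Ppp3cb as lower.

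Of 7 protease inhibitors 2 were called higher in G34R. Cystatin F (Cst7), an inhibitor of cathepsins in immune cells, averaged 4.42 ± 0.612 CPM in G34R (SD, n = 3), 1.77 ± 0.252 CPM in G34V (n = 3) and 0.538 ± 0.269 CPM in G34W (n = 2), against 0.0417 ± 0.0361 CPM in WT (n = 6). Cst7 was called in all 3 comparisons with WT (adjusted p = 3.13e-09, 1.61e-07 and 0.00206 in edgeR), and at so low a WT level the fold is not well determined. Cystatin C (Cst3), the abundant inhibitor of the same proteases, had log2 fold change 0.50 ± 0.14 (SE), adjusted p = 0.0489 in G34R (edgeR). At day 7 no gene of the 6 lists was called by edgeR or DESeq2, and at an unadjusted p under 0.05 the further lysosomal genes had 4 higher and 1 lower, and each other list at most 1 higher and 2 lower. In the interaction, Cst7 and 1 of the further lysosomal genes were called by edgeR.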

How the data were processed

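Whole-cortex total RNA was depleted of rRNA and sequenced, per the labels' protocols. The deposited values are raw counts per gene. The submitters' processing notes name Trimmomatic 0.32, STAR 2.3.0e, featureCounts 1.4.4, bedtools 2.27.1 and mm10, and no source used here states the strand setting or annotation release. Both libraries of 1 WT animal were summed, 175 genes (those of the Y chromosome, Xist and Tsix) were left out, and genes were filtered with edgeR's filterByExpr and scaled by TMM. Tests were edgeR 4.0.16 quasi-likelihood fits (limma 3.58.1, R 4.3.3), with Benjamini-Hochberg adjustment over all genes, and each SE is the log2 fold change over the square root of F. The 10-week groups shared 1 fit, day 7 had its own with sex as a covariate, and a fit over all animals gave the interaction and the age comparison. The fits were checked on simulated data. Alternatives were RLE scaling, no filter, DESeq2 1.42.0, single animals left out, other covariates and blocks, and, chosen after seeing the data, the mitochondrial library sets.

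The members, classes and lists were chosen with earlier results of these data known. Any member could be named, with values per animal for the microglia-enriched genes and for broadly expressed ones called against WT. Genes of the lists were named by smallest adjusted p in G34R, up to 4 a list, and the others after their values were seen. Replicates are animals with separate numbers in the titles. CPM use scaled library sizes, and depth limits the precision of low genes such as Ctsk and Lyz1. Coordinates are those of GENCODE M21 on GRCm38. Chil3, a monocyte marker, was not analysed here. Some genes of the lists are not reported here.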

Additional observations from a re-analysis of the deposited data

Results flagged for a closer look

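In 4 of 147 groups of 4 or more animals screened, a single day-7 WT animal stood apart from the other 3 of its group, where chance alone gives about 1 group in 20. Ctsa, a carboxypeptidase that protects certain glycosidases, was at 67.6 CPM in WT replicate 3, against 59.6 to 59.8 CPM in the other WT animals. Ctsl was at 80.2 CPM in WT replicate 1, against 83.5 to 83.8 CPM in the others. Glb1 was at 30.3 CPM in WT replicate 2, against 27.1 to 27.6 CPM, and Man2b1 at 27.1 CPM in the same animal, against 33.8 to 34.4 CPM.

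The difference between G34R and WT was larger at 10 weeks than at day 7 for 9 members by a test of the difference itself (edgeR interaction). On the log2 scale the excess at 10 weeks was 2.55 for Lyz2, 1.25 for Cd68, 1.02 for Ctsh, 0.92 for Ctsc, 0.57 for Ctsd, 0.52 for Ctsz, 0.46 for Grn, 0.41 for Hexa and 0.40 for Man2b1. Age and any batch between the ages cannot be told apart.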

How the results depend on the processing

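No called member changed direction under an alternative run, whereas 128 of the 348 member estimates not called, over 9 comparisons, took both signs. With number runs (animals whose numbers lie close together) as a block, the members called were 11 in G34R, 5 in G34V and 0 in G34W against WT, 0 in G34R against G34V and 2 in G34R against G34W. With the library set as a block, 0 were called in G34R against G34V and 6 in G34R against G34W, and within the high set 1 in G34W. With the sex label as a covariate, the counts for G34R against G34W and for G34V against G34W changed. Those fits rested on G34W replicate 1 alone, since replicate 2 was the only 10-week animal labelled female. DESeq2 called 10 in G34R against G34V, 3 in G34V against G34W and 5 at day 7. At day 7, RLE scaling and the fit with no sex covariate each gave 1. Leaving out single animals gave 13 to 19 calls in G34R, 8 to 8 in G34V and 0 to 3 in G34W against WT, 0 to 7 in G34R against G34V, 8 to 11 in G34R against G34W, 0 to 1 in G34V against G34W, 0 to 2 at day 7, 5 to 9 for the interaction and 34 to 39 for age. With the class cut to the 4 macrophage-restricted genes (Ctss, Cd68, Laptm5 and Lyz2), its median log2 fold change in G34R was 1.57, against 0.88. Apart from the animals left out and the fewer samples, the cause was not tested. The labels name no pairs of animals, so no paired analysis was run, and the replicate numbers used here only name animals. Runs of animal numbers from the titles served as a block in an alternative fit at 10 weeks. The 2 G34W animals and the 5 residual degrees of freedom at day 7 limit the precision there.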
